A study of Mus musculus with 4 samples.

Results

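The genes described here are 30 transcriptional targets of p53, read on arrays of intestinal epithelial cells from mice that all carried floxed Csnk1a1. All had received tamoxifen to delete it in the gut epithelium, a deletion that these arrays could not check. The members were chosen by name, as the probes whose platform gene symbol is 1 of the 30, out of 16593 genes with a named probe. In all, 27 of the 30 had at least 1 of 55 such probes, and 24 were above background on at least 2 of the 4 arrays and could be tested. The 24 were tested among 8442 genes. Bax, Ckap2 and Gdf15 had no named probe and were not analysed here, and Btg2, Perp and Eda2r stayed at or near background.

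Gene expression was measured on 4 single-colour Illumina bead arrays of C57BL/6 mice, 2 for each of 2 groups. The 2 Ifnar1+/+ arrays, titled wild type, came from mice with floxed Csnk1a1 and Vil1-Cre-ERT2, a Cre recombinase that acts in villin-expressing gut epithelium once tamoxifen is given. The 2 Ifnar1-/- arrays came from mice with the same floxed Csnk1a1 and the same Cre. By title and genotype label these mice also lacked Ifnar1, a chain of the type I interferon receptor, in every cell. The protocol writes both crosses as Ifnar1+/+, so the grouping rests on the titles and labels. Both groups had received tamoxifen at 120 mg/kg on consecutive days, with cells collected 5 days after the last dose. No array came from mice with intact Csnk1a1, so the level of the p53 targets before the deletion is not part of the comparison, which asks only whether they differ between the Ifnar1 genotypes. The labels name the tissue as colon, while the protocol describes the small intestine. The labels do not say whether the arrays of a group came from separate animals, so the p-values reflect only how these samples vary, which may be technical variation. The arrays shared 1 chip, where position and genotype cannot be told apart.

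p53 is a transcription factor that is held at a low level by Mdm2, a ubiquitin ligase whose own gene p53 switches on. When p53 is stabilised it raises genes that stop the cell cycle, genes that start apoptosis, and genes for metabolism and repair. Casein kinase 1 alpha, the product of Csnk1a1, marks beta-catenin for destruction and also works with the Mdm2 relative Mdm4 to restrain p53, and its loss in mouse gut epithelium is known to switch on both Wnt targets and p53. Type I interferon is known to raise transcription of the p53 gene in mouse fibroblasts.

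p53 binds a decamer known as the p53 half-site, usually as a pair of half-sites close together. The 250 bases before the annotated start of 23 members (32 windows, RefSeq, GRCm38.p6) were searched for its consensus, which reads the same on both strands. A match stood in 9 of these 23 genes and in 28.1% of their windows, against 7.13% of the 32851 windows of all genes. Cdkn1a was the 1 member with a pair of matches at most 13 bases apart, an arrangement found in 0.0639% of all windows. A match describes the letters and is not a measured binding site. Windows with a match are printed for the arrest gene Cdkn1a, the feedback genes Mdm2 and Ccng1 and the metabolic gene Sesn1, because the results below turn on these genes; capitals mark the matches.
Cdkn1a (chr17:29090729-29090978, plus strand): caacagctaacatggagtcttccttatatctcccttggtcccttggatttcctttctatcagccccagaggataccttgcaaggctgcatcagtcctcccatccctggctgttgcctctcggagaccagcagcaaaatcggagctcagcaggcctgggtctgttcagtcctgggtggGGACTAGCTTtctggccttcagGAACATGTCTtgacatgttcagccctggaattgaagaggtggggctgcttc
Mdm2 (chr10:117710759-117711008, minus strand): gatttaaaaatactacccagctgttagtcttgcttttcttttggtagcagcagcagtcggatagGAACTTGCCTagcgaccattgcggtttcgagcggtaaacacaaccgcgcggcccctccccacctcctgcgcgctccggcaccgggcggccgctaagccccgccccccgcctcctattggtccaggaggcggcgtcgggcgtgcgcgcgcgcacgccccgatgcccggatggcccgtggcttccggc
Ccng1 (chr11:40755287-40755536, minus strand): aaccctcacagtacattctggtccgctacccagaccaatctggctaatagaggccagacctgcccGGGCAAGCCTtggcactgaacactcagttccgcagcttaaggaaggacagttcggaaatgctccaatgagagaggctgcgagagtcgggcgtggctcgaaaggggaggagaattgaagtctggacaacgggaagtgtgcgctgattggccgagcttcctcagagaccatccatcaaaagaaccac
Sesn1 (chr10:41887189-41887438, plus strand): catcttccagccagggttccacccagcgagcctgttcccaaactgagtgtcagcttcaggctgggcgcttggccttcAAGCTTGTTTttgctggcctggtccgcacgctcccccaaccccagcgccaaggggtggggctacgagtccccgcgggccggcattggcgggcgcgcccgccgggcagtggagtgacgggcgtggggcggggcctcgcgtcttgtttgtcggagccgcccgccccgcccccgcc
In the Cdkn1a window the matches began 73 and 51 bases before the start, the more upstream of its annotated starts, with 12 bases between them. The search took exact matches only. The decamer right after the second Cdkn1a match misses the consensus by 1 letter and is left unmarked. The other windows of Cdkn1a and Sesn1, at other annotated starts, held no match. The Mdm2 match began 186 bases before the start, that of Ccng1 185 and that of Sesn1 173. Ddit4 and Fas had no match in their windows, and Ptp4a3 had no window in the table. Among tested members with a window, 4 of the 7 with a match had a higher mean in the Ifnar1-/- group and 7 of the 11 without one did.

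Between 11234 and 11954 of 25697 probes were detected per array; with 2 arrays per group, it is their number that limits precision. The probes for Ifnar1 and Csnk1a1 were at background on all 4 arrays (detection p-values of 0.301 to 0.902 and 0.244 to 0.729), so neither checks the genotype labels, and Trp53 itself had no named probe. Of 20 interferon-stimulated genes tested, 20 had a lower mean in the Ifnar1-/- group, with a median log2 difference of -1.12 and with Oas2, Usp18 and Parp14 having the smallest p. Oas2, Oas3 and Ifit2 passed the filter only through the Ifnar1+/+ arrays and so had to be lower in the Ifnar1-/- group. All 11 epithelial genes with a probe were detected on every array, while 6 of 9 small intestine genes and 7 of 10 colon genes with a probe could be tested. These counts are alike, but the signals were not. The small intestine genes tested summed to a normalised intensity of 78478 to 98080 per array, and the colon genes to 586 to 1090. The sums come from different probes, and the gut region was not tested. The Ifnar1-/- arrays differed more from each other: a gap of over 1 log2 unit between them was seen in 7.38% of genes, against 1.69% between the Ifnar1+/+ arrays. Such a gap does not tell which of the arrays is the unusual one. Log2 values below are background-corrected, normalised intensities; a probe's level depends on the probe, so levels are compared between arrays and not between genes.

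As a group the p53 targets lay on both sides of 0. Of the 24 tested, 13 had a higher mean in the Ifnar1-/- group and 11 a lower one, and their median log2 difference was 0.035, with quartiles of -0.20 and 0.29. Over all 8442 genes tested, 53% had a higher mean, 47% a lower one, and the median was 0.027. Scaling the arrays by their medians put 15 of the 24 on the higher side. limma called 0 of the 24 at an adjusted p under 0.05 (0% of all genes were called), and the smallest adjusted p of a member was 0.50. An unadjusted p under 0.05 was seen in 3 members, or 12.5%, beside 9.52% of all genes. Ptp4a3 and Ddit4 were on the higher side (4.25% of all genes) and Sesn1 on the lower (5.27% of all genes). An unadjusted p under 0.1 was seen in 5, beside 17.9% of all genes, the others being Cdkn1a and Fas. The 2 groups did not overlap for 9 members, or 37.5%, beside 43.4% of all genes. Of these, 5 were higher (23.9% of all genes) and 4 lower (19.5% of all genes). These shares lie near those of all genes and are not a result about the p53 targets. A log2 difference of at least 0.5 was seen in 5 members, or 20.8%, beside 20.4% of all genes. The half-width of the 95% interval of a single member's difference ranged from 0.53 to 1.18 log2 units, so differences smaller than these could not be resolved with 2 arrays per group.

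**Figure D1:**
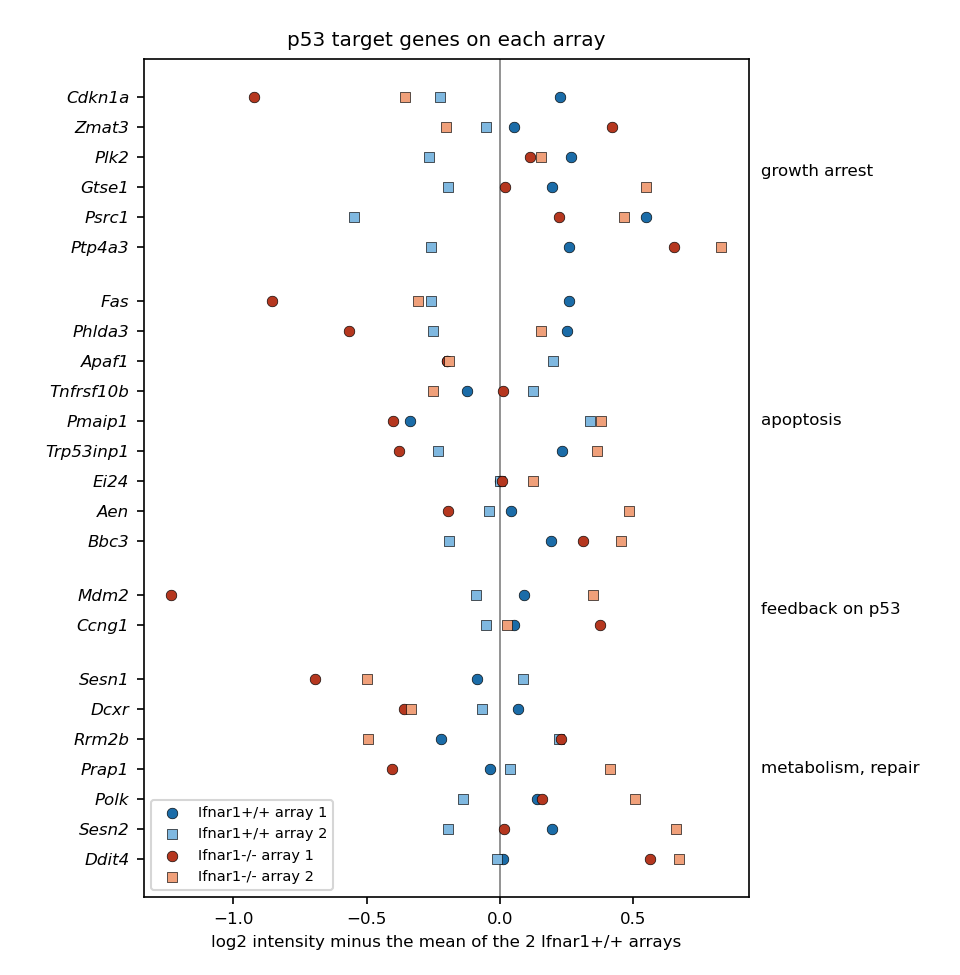
Normalised log2 intensity of the 24 tested p53 target genes on each array, as the deviation from the mean of the 2 Ifnar1+/+ arrays (x axis, log2 units), grouped by role. Each point is 1 array; the largest deviation is that of Mdm2 on Ifnar1-/- array 1, at -1.23, and Ptp4a3 and Ddit4 lie to the right of both Ifnar1+/+ arrays on both Ifnar1-/- arrays.

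The arrest genes included the member with the lowest difference and the one with the highest. Cdkn1a, which encodes the cyclin-dependent kinase inhibitor p21, had raw signals of 5749.0 and 3558.2 on the Ifnar1+/+ arrays, against 2916.0 and 3833.0 on Ifnar1-/- arrays 1 and 2. After normalisation its log2 intensity was 12.43 and 11.98, against 11.28 and 11.85. Both Ifnar1-/- arrays therefore lay below both Ifnar1+/+ arrays, with array 2 only just below. The mean was 12.20 ± 0.32 in the Ifnar1+/+ group and 11.56 ± 0.40 in the Ifnar1-/- group (SD, n = 2 each), a log2 difference of -0.64 ± 0.30 (SE) and a 1.56-fold lower level. Its 95% interval ran from -1.35 to 0.071, and it did not pass the test (limma's adjusted p = 0.54). Cdkn1a had 2 further probes above background. The second by signal read 10.82 and 10.83 against 9.69 and 10.18, a difference of -0.89 (adjusted p = 0.49 when each probe was tested on its own). The remaining probe read 10.02 and 9.74 against 8.67 and 9.78, a difference of -0.65 with groups that overlapped. All 3 probes were thus lowest on Ifnar1-/- array 1, and leaving it out made the brightest probe's difference -0.36, where leaving out Ifnar1-/- array 2 made it -0.92.

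Ptp4a3, a phosphatase gene induced by p53 in mouse fibroblasts, read 8.23 and 7.71 on the Ifnar1+/+ arrays, against 8.62 and 8.80 on the Ifnar1-/- arrays. The Ifnar1-/- values were the higher ones and the groups did not overlap. The log2 difference was 0.74 ± 0.27 (SE, n = 2 per group), with an interval from 0.10 to 1.38 and an adjusted p of 0.50. A second Ptp4a3 probe was above background only on Ifnar1-/- array 1.

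Gtse1, Psrc1 and Ckap2 are p53-responsive genes that act in G2 and mitosis, where their products bind microtubules. Gtse1 read 10.76 and 10.37 against 10.58 and 11.11, a difference of 0.28 ± 0.28 (SE), and its second probe differed by 0.14. Psrc1 read 7.41 and 6.31 against 7.08 and 7.32, so its Ifnar1+/+ arrays spanned a wider range than the Ifnar1-/- ones, and its difference was 0.34 ± 0.38 with the groups overlapping. Both of these genes overlap in function with the 13 mitotic genes tested, out of 21 with a probe. All 13 had a higher mean in the Ifnar1-/- group (median 0.34), beside 53% of all genes. An unadjusted p under 0.05 was seen in 0 of them, beside 9.52% of all genes. Nusap1, Tpx2 and Plk1 had the smallest p in that list. These spindle and mitotic kinase genes differed by 0.80 ± 0.39, 0.53 ± 0.25 and 0.39 ± 0.22 (SE). A link between the mitotic genes and Gtse1 or Psrc1 was not tested.

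The remaining arrest genes differed little. Plk2, a polo-like kinase gene that p53 induces, read 8.42 and 7.88 against 8.26 and 8.30, a difference of 0.13 ± 0.26. Zmat3, which encodes an RNA-binding zinc finger protein, read 9.98 and 9.87 against 10.35 and 9.72, and its difference was 0.11 ± 0.28, or -0.20 without Ifnar1-/- array 1. Btg2, an antiproliferative gene, had raw signals of 136.7 to 144.8 and was at background on all 4 arrays.

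Of the 9 apoptosis genes tested, 3 had a higher mean and 6 a lower one, with a median difference of -0.012 and 0 at an unadjusted p under 0.05. Fas, a death receptor gene, had the lowest difference of them. Its raw signals were 619.5 and 399.0 on the Ifnar1+/+ arrays, against 384.2 and 453.2 on the Ifnar1-/- arrays, and its log2 intensity was 8.94 and 8.42 against 7.83 and 8.37. The groups did not overlap, although Ifnar1+/+ array 2 and Ifnar1-/- array 2 lay close together. The log2 difference was -0.58 ± 0.30 (SE, n = 2 per group; interval -1.30 to 0.14, adjusted p = 0.56), or -0.31 without Ifnar1-/- array 1. A second Fas probe read 6.55 and 6.78 against 5.81 and 6.47, a difference of -0.52, and it too was lowest on Ifnar1-/- array 1.

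Fas is also found on lymphocytes, whose marker genes were lower in the Ifnar1-/- group. All 8 T cell and intraepithelial lymphocyte genes tested, led by Cd3d, Nkg7 and Cd3g, had a lower mean there, their summed normalised intensity being 925 to 1113 on the Ifnar1+/+ arrays and 237 to 462 on the Ifnar1-/- arrays. Cd8a, Cd4, Cd2, Cd5, Cd7, Ptprc, Gzma and Gzmb were at background on all 4 arrays. The part of these cells in the Fas difference was not tested, and in such bulk samples fewer cells of a type and less RNA per cell cannot be told apart.

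Bbc3 and Pmaip1 encode Puma and Noxa, BH3-only proteins that free Bax and its relatives to open mitochondria. Bbc3 read 8.91 and 8.53 on the Ifnar1+/+ arrays, against 9.03 and 9.18 on the Ifnar1-/- arrays. Both Ifnar1-/- arrays were above both Ifnar1+/+ arrays, by a mean of 0.38 ± 0.25 log2 units (SE; interval -0.21 to 0.97). A dimmer Bbc3 probe differed by 0.057 with overlapping groups. Pmaip1 read 7.52 and 8.19 against 7.45 and 8.23, so its arrays varied within each genotype by far more than the mean difference of -0.012 ± 0.36.

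Among the other genes of the apoptotic machinery, Apaf1, the scaffold of the apoptosome, read 10.91 and 11.31 against 10.91 and 10.92, a difference of -0.19 ± 0.24. Its second probe differed by -0.47, with the Ifnar1-/- arrays at 7.71 and 7.88 and the Ifnar1+/+ arrays at 8.12 and 8.42, so that the groups of that probe did not overlap. Tnfrsf10b, the mouse receptor for the death ligand TRAIL, read 8.56 and 8.81 against 8.70 and 8.44, with a difference of -0.12 ± 0.24. Its second probe differed by -0.14, and a dimmer one was above background on the Ifnar1+/+ arrays alone.

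Ei24, an endoplasmic reticulum protein gene that p53 induces, read nearly the same on all 4 arrays. Its values were 10.09 and 10.09 against 10.10 and 10.21, a difference of 0.067 ± 0.22, and the groups were apart by a narrow margin. Aen, a nuclease gene, read 6.09 and 6.00 against 5.85 and 6.53 and differed by 0.14 ± 0.29. Phlda3, which encodes a pleckstrin-homology protein that restrains Akt, read 9.08 and 8.57 against 8.26 and 8.98, and its 2 probes pointed in different directions, at -0.21 and 0.043.

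Trp53inp1, whose product promotes apoptosis and autophagy, read 10.25 and 9.78 on the Ifnar1+/+ arrays, against 9.63 and 10.38 on the Ifnar1-/- arrays. Its spread within each genotype exceeded its mean difference of -0.0075 ± 0.33. The dimmer of its 2 probes differed by 0.49, the Ifnar1-/- arrays being at 6.41 and 6.85 and the Ifnar1+/+ arrays at 6.35 and 5.94. Perp, a desmosome-associated p53 target, was at background on all 4 arrays with raw signals of 134.7 to 143.3. Eda2r, an ectodysplasin receptor gene, was detected on Ifnar1-/- array 1 alone, at a raw signal of 175.9 against 137.7 to 145.2 on the others.

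**Figure D2:**
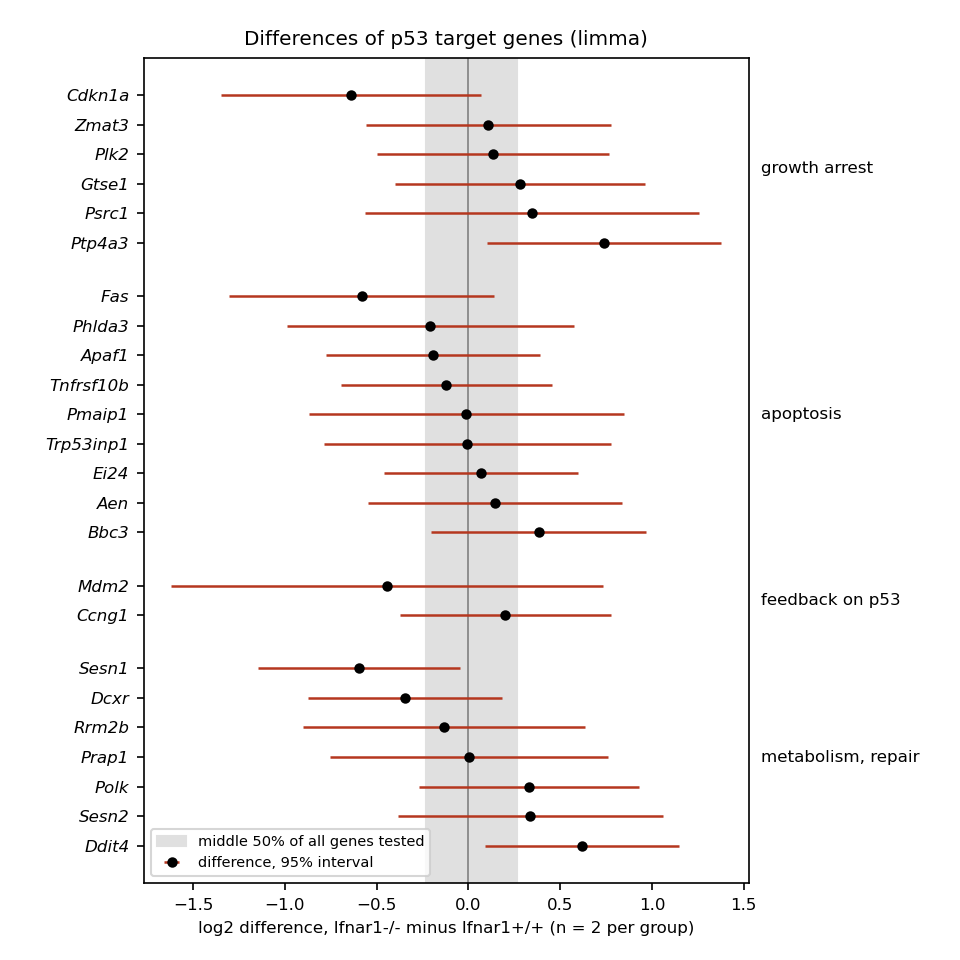
Log2 difference of each tested p53 target gene, Ifnar1-/- minus Ifnar1+/+, from limma (points) with its 95% interval (bars), n = 2 arrays per group, and the middle 50% of all 8442 genes tested (grey, -0.23 to 0.27). The intervals of 21 of the 24 include 0, and those of Ptp4a3, Ddit4 and Sesn1 do not before adjustment.

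The 2 feedback genes had means on opposite sides of 0 and were well above background on every array. Mdm2 had raw signals of 3302.9 and 2507.5 on the Ifnar1+/+ arrays, against 1544.7 and 4019.1 on Ifnar1-/- arrays 1 and 2. Its log2 intensity was 11.65 and 11.47 against 10.33 and 11.91, so the Ifnar1-/- arrays held both the lowest and the highest value. The difference was -0.44 ± 0.49 (SE, n = 2 per group; interval -1.62 to 0.74, adjusted p = 0.77), the widest interval of any member. Leaving out Ifnar1-/- array 1 made it 0.35, and leaving out array 2 made it -1.23. The second Mdm2 probe read 11.05 and 10.74 against 10.76 and 11.20, a difference of 0.087, and showed the same order of the Ifnar1-/- arrays with a smaller gap than the 1.58 log2 units of the brightest probe. The remaining probe was at background.

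Ccng1 encodes cyclin G1, which brings a phosphatase to Mdm2. It read 12.03 and 11.93 on the Ifnar1+/+ arrays, against 12.35 and 12.01 on the Ifnar1-/- arrays, a difference of 0.20 ± 0.24 (SE). Here Ifnar1-/- array 1 was the highest of the 4, where Cdkn1a and the brightest Mdm2 probe were lowest. Its other 2 probes differed by -0.12 and -0.092 and were also higher on Ifnar1-/- array 1 than on array 2. Mdm4, the Mdm2 relative that binds p53, read 6.35 and 6.09 against 5.95 and 6.37, with a difference of -0.059 ± 0.26.

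**Figure D3:**
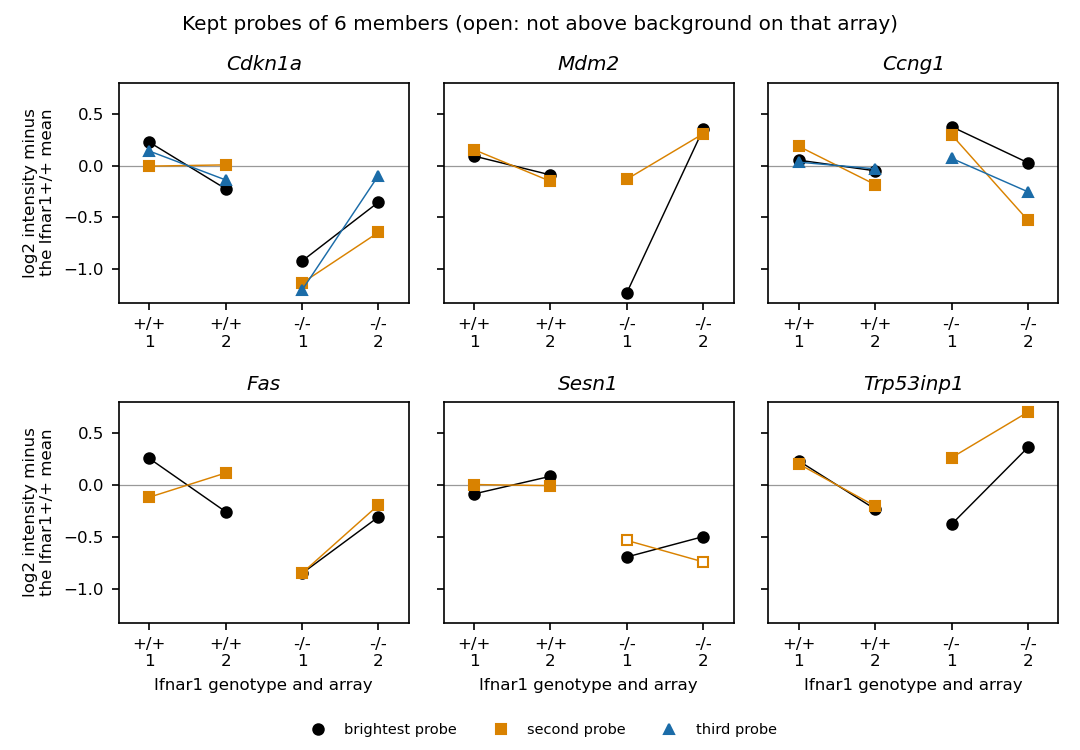
Every probe of Cdkn1a, Mdm2, Ccng1, Fas, Sesn1 and Trp53inp1 that was above background on at least 2 arrays, as log2 intensity minus that probe's mean on the 2 Ifnar1+/+ arrays (y axis); open points were not above background on that array, and lines join arrays of 1 genotype. The 3 Cdkn1a probes and the brightest Sesn1 probe lie below 0 on both Ifnar1-/- arrays, while the 2 Mdm2 probes part on Ifnar1-/- array 1, at -1.23 for the brightest.

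Of the 7 metabolic and repair genes tested, 4 had a higher mean and 3 a lower one, with a median difference of 0.0028. Ddit4 encodes Redd1, an inhibitor of mTORC1 that p53, hypoxia and other stresses induce. Its raw signals were 716.8 and 591.9 on the Ifnar1+/+ arrays, against 1099.4 and 1056.3 on the Ifnar1-/- arrays, and its log2 intensity was 9.20 and 9.17 against 9.75 and 9.86. The values of each genotype lay close together and the groups were well apart. The log2 difference was 0.62 ± 0.22 (SE, n = 2 per group), or 1.53-fold higher, with an interval from 0.089 to 1.15 and an adjusted p of 0.50 by limma. It ranged from 0.56 to 0.67 when each array was left out, the narrowest such range among the 5 members that differed by at least 0.5.

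The sestrins Sesn1 and Sesn2 are stress proteins that also hold back mTORC1. Sesn1 had raw signals of 755.7 and 702.9 on the Ifnar1+/+ arrays, against 592.5 and 592.6 on the Ifnar1-/- arrays. Its log2 intensity was 9.30 and 9.47 against 8.69 and 8.89, with both Ifnar1-/- arrays lower. The difference was -0.60 ± 0.23 (SE; interval -1.15 to -0.046, limma's adjusted p = 0.51), a 1.51-fold lower level. A dim second probe was above background on the Ifnar1+/+ arrays alone, so it has only a bound in the Ifnar1-/- group and gives no second measure of the difference. Sesn2 read 6.23 and 5.84 against 6.05 and 6.70, a difference of 0.34 ± 0.30 with overlapping groups. The sestrin genes thus had means on opposite sides of 0, and the difference between them was not tested.

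Prap1, a proline-rich acidic protein gene active in gut epithelium, was bright on every array, with raw signals of 14706.9 and 13028.9 against 12633.7 and 18351.6. Its log2 intensity was 13.81 and 13.88 on the Ifnar1+/+ arrays, against 13.44 and 14.26 on the Ifnar1-/- arrays, so that the Ifnar1-/- values lay on either side of the others. The mean difference was 0.0028 ± 0.31. Dcxr, a carbonyl reductase gene of sugar metabolism, read 9.85 and 9.72 against 9.43 and 9.45. Its groups did not overlap, and it differed by -0.35 ± 0.22 (interval -0.88 to 0.19), while its second probe differed by -0.10.

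Polk and Rrm2b serve DNA synthesis under damage, as a translesion polymerase and a ribonucleotide reductase subunit. Polk read 7.35 and 7.07 against 7.37 and 7.72, a difference of 0.33 ± 0.25 with groups just apart. Rrm2b read 6.15 and 6.59 against 6.60 and 5.88, a difference of -0.13 ± 0.32, and its other 2 probes were at background on all 4 arrays.

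The p53 targets also differed between arrays of 1 genotype. Of the 24, 20 were lower on Ifnar1-/- array 1 than on Ifnar1-/- array 2, beside 50.7% of all genes, and 18 were lower on Ifnar1+/+ array 2 than on Ifnar1+/+ array 1, beside 50.2% of all genes. Their median deviation from the Ifnar1+/+ mean was 0.079 and -0.079 on the Ifnar1+/+ arrays, against 0.010 and 0.25 on the Ifnar1-/- arrays. This was looked at after the values were seen, and it is a description with no test. Zmat3, Ccng1, Tnfrsf10b and Rrm2b were the 4 members that were higher on Ifnar1-/- array 1. The gap between the Ifnar1-/- arrays was the larger one in 18 of the 24, with a median size of 0.44 log2 units against 0.38 between the Ifnar1+/+ arrays; over all genes these medians were 0.35 and 0.19.

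Genes of the absorptive enterocyte, the nutrient-absorbing cell of the villus, separated the same pair of arrays. All 16 tested were lower on Ifnar1-/- array 1 than on array 2, and 15 of the 16 had a lower mean in the Ifnar1-/- group, with a median difference of -0.81 and the smallest p for the brush border peptidase genes Ace, Anpep and Mep1b. Their summed normalised intensity was 138837 to 153106 on the Ifnar1+/+ arrays, 68417 on Ifnar1-/- array 1 and 122758 on Ifnar1-/- array 2. Fabp1, Fabp2 and Slc2a5 were at background on all 4 arrays. Mitotic genes ran the other way, with 3 of 13 lower on Ifnar1-/- array 1 than on array 2. Fibroblast and smooth muscle genes had a lower mean in 6 of 7, with Tagln at background on all 4 and the smallest p for Col6a2, Sparc and Vim. They summed to 3433 and 868 on Ifnar1+/+ arrays 1 and 2, against 818 and 535 on Ifnar1-/- arrays 1 and 2. Ifnar1+/+ array 1 thus stood apart, with Ifnar1+/+ array 2 close to Ifnar1-/- array 1. The 4 macrophage and B cell genes tested were all lower, summing to 1005 to 1310 and 601 to 689, with Itgam, Cd79a and Ms4a1 at background on all 4 and the smallest p for Laptm5, Cd79b and Fcer1g. Ace, Cd3d, Vim and Cd79b, like Oas2, Oas3 and Ifit2 above, passed the filter only through the Ifnar1+/+ arrays and so had to be lower in the Ifnar1-/- group. The part of any of these cell types in the values of Cdkn1a, Mdm2, Prap1 or other p53 targets was not tested.

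**Figure D4:**
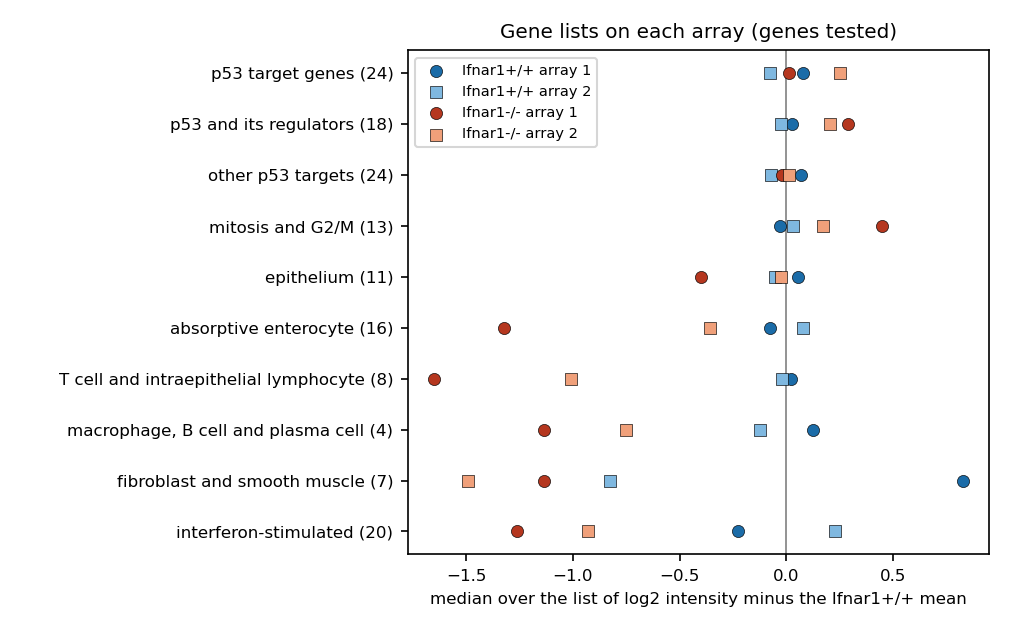
Median over each gene list of log2 intensity minus the Ifnar1+/+ mean, on each array (x axis, log2 units), with the number of genes tested in brackets. The 24 p53 targets span -0.079 to 0.25 over the 4 arrays, whereas the enterocyte genes reach -1.32 and the T cell genes -1.65 on Ifnar1-/- array 1.

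A further list held p53 and its regulators, of which 18 of 26 could be tested. The mean was higher in 13 and lower in 5, with a median of 0.25. These counts include Chek1, which passed the filter only through the Ifnar1-/- arrays and so had to be higher there. Chek1 and Chek2 are checkpoint kinase genes that signal DNA damage to p53. Chek1 was at background on both Ifnar1+/+ arrays, at 5.12 and 5.36, and read 6.34 and 5.85 on the Ifnar1-/- arrays, at least 1.71-fold higher (adjusted p = 0.50), a value that its selection by the filter makes a description only. Chek2 read 6.70 and 6.37 against 7.24 and 7.05, a difference of 0.62 ± 0.24 (SE; adjusted p = 0.51). Trp53bp2, whose product ASPP2 binds p53, read 7.10 and 7.16 against 7.65 and 7.65, a difference of 0.52 ± 0.22 (adjusted p = 0.52).

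Of 37 other p53 targets, 24 could be tested, and again they lay on both sides, with 13 higher, 11 lower and a median of 0.085. In each direction 2 had an unadjusted p under 0.05, beside 4.25% of all genes on the higher side and 5.27% on the lower. Together these were 16.7% of the 24, beside 9.52% of all genes. Siva1, a proapoptotic gene, read 10.59 and 10.31 against 11.35 and 11.16, a difference of 0.80 ± 0.24 (SE). Trp53i11, a p53-induced membrane protein gene, was dim and above background on only 1 Ifnar1+/+ array. It read 5.48 and 5.22 against 6.14 and 6.15 and differed by 0.79 ± 0.23, a value that rests in part on background. Epha2, an ephrin receptor gene, read 8.53 and 8.01 against 7.05 and 7.60, a difference of -0.95 ± 0.30. Klf4, a transcription factor gene of differentiated gut epithelium and the second of the lower ones, differed by -0.77 ± 0.30. None of the 18 regulators or 24 further targets passed limma's test over all genes, the smallest adjusted p being 0.49.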

How the data were processed

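Per the file headers, the deposited raw intensity values are bead signals per probe with a detection p-value each; per the submitters' processing notes they came from GenomeStudio 1.8. The deposited normalized intensity values share 1 range on all arrays; the authors' scaling of them, not given in the sources used here, is unknown. Groups were taken from the sample titles and genotype labels, and all 4 arrays lay on 1 chip.

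Raw intensities were background-corrected from the detection p-values, quantile normalized and log2 transformed by neqc (offset of 16) of limma 3.58.1 in R 4.3.3. The offset shrinks the differences of dim genes. The filter kept 11884 probes, those detected on at least 2 arrays at p under 0.05, and each gene was read from its brightest kept probe. Platform annotation named 23978 probes with 1 gene and 1719 with none. Groups were compared with lmFit and eBayes, two-sided, p-values being adjusted by Benjamini-Hochberg over the 8442 genes, with 2 residual and 4.54 prior degrees of freedom. Simulated data for checking the fit had equal spread in both groups, so they do not cover the unequal spread between arrays seen here. Summed intensities are 2 to the power of the log2 value, minus the offset. A fold given as "at least" takes, for the group at background, the lowest signal detected on each of its arrays or the probe's own where higher. Promoter windows came from RefSeq. Figures used matplotlib 3.10.9.

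The members, their roles and the lists were chosen with earlier results of these data known. Values on every array were to be given for members with an unadjusted p under 0.1 and a set of named members, and were given for all tested members; of each other list described in the text, the 3 genes with the smallest p were named, except the epithelial and gut region lists, and Klf4, the members not above background and the members of other lists at background were named after their values were seen. Alternatives tried were, for the values, raw signals without background correction, scaling by medians, an offset of 50 and the authors' normalized values; for the probes, no filter, detection on all 4 arrays at p under 0.01, a mean over each gene's probes and each probe on its own; and, for the fit, a variance trend, a block for the replicate number, thresholds of 0.1, and leaving out each array.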

Additional observations from a re-analysis of the deposited data

How the results depend on the processing

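With each array left out, the number of genes limma called ranged from 0 to 14, the members' median log2 difference from 0.010 to 0.25, the members with a higher mean from 13 to 16 of 24, and those at an unadjusted p under 0.05 from 0 to 5. The 5 and 14 called genes came without Ifnar1+/+ array 1 and array 2 and held no p53 target, and the median of 0.25 came without Ifnar1-/- array 1. Members at an unadjusted p under 0.05 numbered 4 without background correction, with an offset of 50 and with the authors' normalized values, Cdkn1a being the added one. They numbered 2 with median scaling, where Sesn1 dropped out. There were 5 of 41 with each probe on its own (1 of them a dim Sesn1 probe that passed the filter only through the Ifnar1+/+ arrays), 1 with the replicate number as a block and 5 at a threshold of 0.1. The numbers gave no sign of pairing the arrays (correlation of deviations -0.05 across genes), and the block changed no other count. In the main fit 9.52% of all genes had an unadjusted p under 0.05 and 17.9% one under 0.1. Such shares are not given here for the other settings, so the changing member counts are not a result about the p53 targets. Median scaling moved the median of all genes to 0.11 and that of the members to 0.13, with 15 of 24 higher, and turned Pmaip1 (0.11) and Trp53inp1 (0.11). The mean of a gene's probes turned Trp53inp1 (0.24) and Ccng1 (-0.0021). Of the 24 differences, 11 kept their direction under every alternative and 12 when each array was left out. Those that turned then ranged from -0.13 to 0.40 (Plk2), -0.20 to 0.89 (Psrc1), -0.20 to 0.42 (Zmat3), -0.40 to 0.38 (Pmaip1), -0.25 to 0.011 (Tnfrsf10b), -0.57 to 0.15 (Phlda3), -0.20 to 0.48 (Aen), -0.39 to 0.0040 (Apaf1), -0.38 to 0.36 (Trp53inp1), -1.23 to 0.35 (Mdm2), -0.41 to 0.41 (Prap1) and -0.49 to 0.23 (Rrm2b). Cdkn1a, Fas, Sesn1, Ptp4a3 and Ddit4 were among those that did not turn. The cause of these changes was not tested. Where 1 array stood for a group, its spread was taken from the other group.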
